A study of Homo sapiens with 8 samples.

Results

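The SLAM family and the costimulatory molecules of antigen-presenting cells were followed as a group of 10 genes, SLAMF1, SLAMF6, SLAMF7, CD48, CD84, LY9, CD58, CD80, CD83 and CD86. All probe sets whose single gene symbol in the platform annotation was one of these names were taken, which gave 32 of the 54675 probe sets on the array and 10 of its 19775 named genes. RNA was measured on Affymetrix HG-U133 Plus 2.0 arrays, which read each transcript with sets of short oligonucleotides. The 8 arrays came from SUP-B8 and NALM-6, human lines described in the labels as acute lymphoblastic leukaemia, each grown for 72 h in the presence of either GSK126 at 0.5 uM or its vehicle, DMSO. The compound GSK126 blocks EZH2 selectively, the catalytic subunit of the Polycomb complex PRC2, which methylates histone H3 at K27 and keeps genes silent. The title of the study concerns an A687V form of EZH2, and the EZH2 genotype of either line was not given in the sources used here. Each of the 4 groups had 2 arrays, called biological replicates in the labels. The RNA was the pooled RNA of a culture, so fewer cells carrying a transcript and less transcript per cell cannot be told apart.

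SLAM receptors are immunoglobulin-like proteins of the CD2 family on lymphocytes and other blood cells, most of which bind a copy of themselves on the neighbouring cell and signal through the small adaptor SAP, the product of SH2D1A. CD48 and CD58 belong to the same protein family and act mainly as ligands, CD48 of CD244 and CD58 of CD2. CD80 and CD86 are the B7 ligands of CD28 and CTLA4 and deliver the second signal for T-cell activation, while CD83 marks activated B cells and dendritic cells and holds CD86 and MHC class II at the surface. In the B lineage these molecules are generally associated with activation and with contact to T cells. Promoters dense in CpG dinucleotides are the usual places where PRC2 is recruited in mammalian cells.

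RefSeq promoter windows (GRCh38.p14), from 250 bases before to 50 bases after an annotated transcription start, were matched by symbol for 7 of the 10 genes and numbered 9. CD84, SLAMF7 and LY9 had no entry. The motif searched was CG, which reads the same on both strands and cannot overlap itself. It was found in 96% of the 35116 windows of this length, with a median of 14 copies. The windows of SLAMF1 (chr1:160646995-160647294, minus strand), CD58 (chr1:116570977-116571276, minus strand), CD80 (chr3:119559565-119559864, minus strand) and of the CpG-rich start of CD83 (chr6:14117522-14117821, plus strand) are printed 5′ to 3′ because they show CpG-poor and CpG-rich starts of genes that changed under GSK126. Capitals mark CG.
SLAMF1: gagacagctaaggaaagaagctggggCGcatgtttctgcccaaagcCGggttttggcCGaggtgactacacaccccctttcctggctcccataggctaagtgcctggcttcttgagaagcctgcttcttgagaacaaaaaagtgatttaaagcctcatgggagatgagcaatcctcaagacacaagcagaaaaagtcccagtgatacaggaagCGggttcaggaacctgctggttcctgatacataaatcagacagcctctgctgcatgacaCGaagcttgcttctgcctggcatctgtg
CD80: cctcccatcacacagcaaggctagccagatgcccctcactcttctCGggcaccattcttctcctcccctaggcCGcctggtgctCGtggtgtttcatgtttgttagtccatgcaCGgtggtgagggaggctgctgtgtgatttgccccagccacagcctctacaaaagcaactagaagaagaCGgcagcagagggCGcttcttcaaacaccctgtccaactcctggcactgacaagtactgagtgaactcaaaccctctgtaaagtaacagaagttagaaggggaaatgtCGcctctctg
CD58: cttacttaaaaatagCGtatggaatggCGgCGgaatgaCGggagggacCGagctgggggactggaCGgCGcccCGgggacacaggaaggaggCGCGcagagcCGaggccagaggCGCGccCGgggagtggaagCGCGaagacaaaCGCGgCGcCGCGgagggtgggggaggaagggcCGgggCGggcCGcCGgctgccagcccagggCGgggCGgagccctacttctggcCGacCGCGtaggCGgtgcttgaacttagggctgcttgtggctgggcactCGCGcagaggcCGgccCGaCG
CD83: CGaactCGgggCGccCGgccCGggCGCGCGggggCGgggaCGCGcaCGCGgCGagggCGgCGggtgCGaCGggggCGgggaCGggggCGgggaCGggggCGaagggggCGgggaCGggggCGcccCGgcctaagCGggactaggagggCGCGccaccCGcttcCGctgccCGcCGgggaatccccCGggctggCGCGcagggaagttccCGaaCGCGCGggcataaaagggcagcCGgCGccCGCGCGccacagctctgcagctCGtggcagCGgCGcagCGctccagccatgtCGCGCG

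The SLAMF1 window held 5 CG and the CD80 window 7, and 29.6% and 36.8% of all windows held fewer. The CD58 window held 36 CG, more than 87.3% of windows, and the CD83 window held 53, more than 99.4%. The other windows, those of SLAMF6, CD48, CD86 and the second start of CD83, held between 1 and 6 CG, SLAMF6 having the fewest. These counts describe the sequence. No chromatin was measured, and no factor or mark is placed at these starts by them.

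The arrays were homogeneous within groups. Across all probe sets replicate arrays correlated at 0.9977 to 0.9982, arrays of the same line under different treatment at 0.9899 to 0.9975 and arrays of different lines at 0.9203 to 0.9289. Array medians lay between 7.18 and 7.24 on the log2 scale. No detection calls were used, so a group with both arrays below their array medians is treated as not shown to be above background, and a difference against it is printed as a lower bound ("at least"), measured from the mean of the brighter group down to those medians. That limit was chosen after the results were seen.

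The line labels could not be taken at face value. General descriptions of NALM-6 call it a precursor B line with terminal transferase and without CDKN2A. In the DMSO arrays labelled SUP-B8, DNTT, which encodes terminal transferase, read 13.67 ± 0.13 (SD, n = 2). The arrays labelled NALM-6 read 6.86 ± 0.04 (SD, n = 2), which is below the medians. CDKN2A read 11.93 ± 0.02 in the NALM-6 label and 7.53 ± 0.17 in the SUP-B8 label (SD, n = 2). Its neighbour MTAP lay above the medians in the NALM-6 label and at 5.64 ± 0.04 (SD, n = 2), below them, in the SUP-B8 label. The same check held MME and CDKN2B, which set the labels apart less clearly. MME lay above the medians in both labels, at 12.97 in SUP-B8 and 10.60 in NALM-6 under DMSO. CDKN2B lay below them in all 4 groups. Groups are therefore named by their label, and the direction of any comparison between lines is that of the labels. Each response to GSK126 is measured within arrays that carry the same line label.

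Markers of other cell types were checked in the same arrays. All 5 B-lineage markers on the array (CD79A, CD79B, PAX5, CD22 and BLNK) lay above the array medians in all 4 groups, and 0 of 5 monocyte markers did so in any group. Of the 6 T-cell markers 4 lay above the medians in every group, with a summed linear signal of 939 to 1044 over all arrays, and none of the 4 tested was called in any comparison (limma). One of 4 dendritic-cell markers, CD1C, lay above the medians throughout, and CCL17 joined it in arrays labelled NALM-6 under GSK126. In the arrays labelled NALM-6, 39.3% of all tested genes were called under GSK126 (limma). Among early B markers IGLL1 and MME were called lower there, IGLL1 with both groups below the medians. Among B-lineage markers CD79B, PAX5 and BLNK were called higher and CD22 lower. Among mature B-cell markers MS4A1 and CR2 were called lower and CCR7 was not called. The summed linear signal of the mature list lay between 18370 and 18553 under DMSO and between 11742 and 12130 under GSK126. In it MS4A1 went from 13.34 to 12.38 and CCR7 from 12.90 to 12.61 on the log2 scale. In the arrays labelled SUP-B8 MS4A1 rose instead, by 1.07 ± 0.06 (limma, adjusted p = 5.15e-04). The summed signal lay between 472 and 480 under DMSO and between 746 and 762 under GSK126. MS4A1 alone of the list lay above the medians there, so that sum does not show a shift of the whole list. CR2 and CCR7 read lower under GSK126 in that label and were not called. Whether these shifts have a part in the member results was not tested.

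The first comparison asked how the members responded to GSK126 in the arrays labelled NALM-6. Of the 9 members tested, 7 fell, 1 rose and CD86 was not called (limma, adjusted p under 0.05 by the Benjamini-Hochberg method over 13161 genes). Over all tested genes 39.3% were called, 18.5% lower and 20.8% higher. The median of the 9 log2 differences was -0.39, against 0.02 over all tested genes. On their representative probe sets SLAMF1, CD80 and LY9 changed by at least 2-fold, a size reached by 2.17% of tested genes. As means of probe sets SLAMF1 at -1.47 and CD58 at -1.20 reached that size, and CD80 at -0.56 and LY9 at 0.58 did not. The arrays of both treatments did not overlap for 9 of the 9, and the same held for 68.8% of tested genes. The smallest two-sided p of an exact permutation test on 2 arrays against 2 is 0.333, which leaves the calls to the model.

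**Figure D1:**
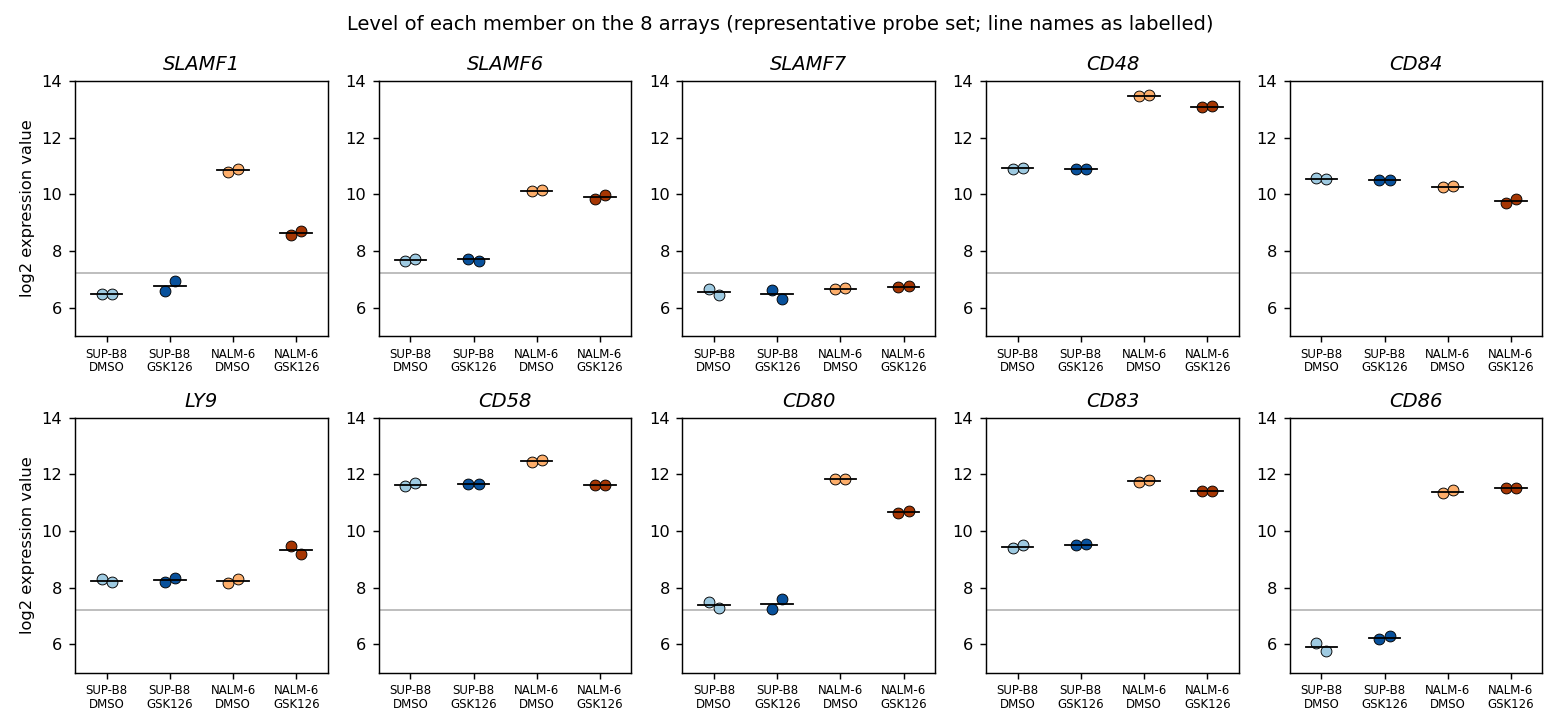
Log2 expression value (vertical axis) of the representative probe set of each of the 10 members on the 8 arrays, by labelled line and treatment. Points are single arrays, black bars are group means (n = 2), and the grey band marks the array medians of 7.18 to 7.24. SLAMF1, CD58 and CD80 drop and LY9 climbs from DMSO to GSK126 in the arrays labelled NALM-6, and SLAMF7 stays below the band on all arrays.

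SLAMF1, a self-binding receptor of activated lymphocytes, was the member with the largest change. Its representative probe set, 206181_at, read 10.80 and 10.90 under DMSO and 8.58 and 8.71 under GSK126 in the arrays labelled NALM-6. It read 6.48 and 6.48 under DMSO and 6.60 and 6.94 under GSK126 in those labelled SUP-B8. The NALM-6 groups were far apart, and all 4 arrays labelled SUP-B8 lay below their medians. In the NALM-6 label SLAMF1 fell by 2.21 ± 0.10 (SE) on the log2 scale, a 4.62-fold decrease (limma, adjusted p = 3.70e-06). The probe set 1555626_a_at fell by 1.79 ± 0.13 and 239427_at fell by 0.42 ± 0.12 (limma over all probe sets, adjusted p = 3.05e-05 and 0.0352). The mean of the 3 probe sets fell by 1.47 (limma, adjusted p = 1.92e-06), so the size depends on the probe set.

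SLAMF6, a further self-binding SLAM receptor that also signals through SAP, moved least among the called members. Its single probe set fell by 0.22 ± 0.06 in the NALM-6 label (limma, adjusted p = 0.0152). The call was lost without DMSO replicate 2 of the NALM-6 label (-0.21, adjusted p = 0.0665) and without GSK126 replicate 1 (-0.17, adjusted p = 0.115). SLAMF7, a receptor of plasma cells and natural killer cells, lay below the array medians in all 4 groups on each of its 3 probe sets and was not tested among the genes. None of its probe sets was called in either response, and no size is given.

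CD48, the membrane-anchored ligand of CD244, read 13.47 and 13.50 under DMSO and 13.08 and 13.11 under GSK126 in the arrays labelled NALM-6. The groups did not overlap. CD48 fell by 0.39 ± 0.05 (limma, adjusted p = 3.34e-04). Its other probe set, 237759_at, gave -0.35 ± 0.12 and did not pass the test (limma over all probe sets, adjusted p = 0.0807).

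CD84, a self-binding receptor found on B cells and platelets, had 8 probe sets. The representative 230391_at read 10.25 and 10.30 under DMSO and 9.70 and 9.82 under GSK126 in the arrays labelled NALM-6, without overlap. CD84 fell by 0.51 ± 0.05 (limma, adjusted p = 1.77e-04). Of the 8 probe sets 4 were called lower. The 5 with no group below the medians gave differences from -0.51 to -0.08, and 2 of these were called. The other two called were 211192_s_at, which fell by at least 0.19, and 211188_at, which had both groups below the medians. The mean of the 8 fell by 0.32 (limma, adjusted p = 6.13e-04).

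LY9, also known as CD229, a SLAM receptor of B and T cells, was the single member that rose. In the arrays labelled NALM-6 the representative 231124_x_at read 8.18 and 8.31 under DMSO and 9.48 and 9.20 under GSK126. The GSK126 arrays lay above both DMSO arrays. The difference was 1.10 ± 0.10, a 2.14-fold increase (limma, adjusted p = 7.99e-05). The other probe sets gave less. For 210370_s_at, whose DMSO group lay below the medians, the rise was at least 0.33 (limma over all probe sets, adjusted p = 0.0384), and 215967_s_at gave 0.18 ± 0.12 and was not called (adjusted p = 0.374). As a mean of the 3 probe sets LY9 rose by 0.58 (limma, adjusted p = 4.97e-04). The _x_at suffix marks probe sets that can hybridize to related sequences, and the direction held in all 3 probe sets while the size did not.

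The 6 SLAM-family genes lie together on chromosome 1. The RefSeq gene list places 12 genes from the outermost member on one side to that on the other, in the order SLAMF6, CD84-AS1, CD84, SLAMF1, LOC107985220, SETP9, CD48, LOC124904439, LOC124904440, SLAMF7, LOC105371470 and LY9. Of these, 6 had a probe set with a single symbol, the 6 members themselves. Along this order the called members fell from SLAMF6 to CD48, and LY9 at the far end rose. The gene next to LY9 among those measured, SLAMF7, was not shown to be above background in any group.

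**Figure D2:**
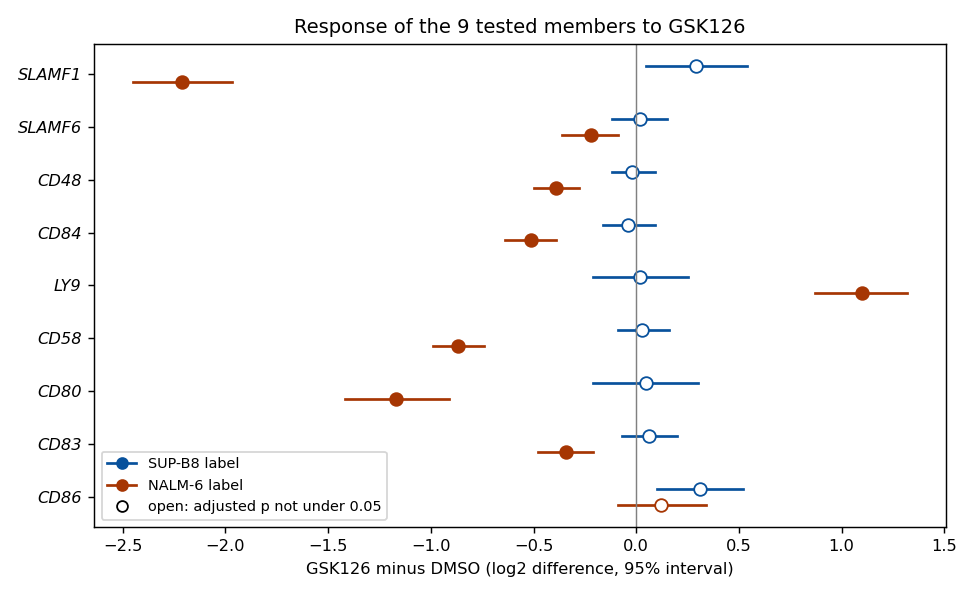
Log2 difference, GSK126 minus DMSO (horizontal axis), of the 9 tested members with its 95% interval from limma, in arrays labelled SUP-B8 (blue) and NALM-6 (red). Filled points passed the adjusted p threshold of 0.05. The 8 filled points all belong to the NALM-6 label, and SLAMF1 and CD86 in the SUP-B8 label are drawn although both of their groups lay below the array medians.

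Among the costimulatory and adhesion members, CD58 gave the most even picture over its probe sets. CD58, the ligand through which target cells engage CD2 on T and natural killer cells, read 12.44 and 12.51 under DMSO and 11.61 and 11.61 under GSK126 in the arrays labelled NALM-6. The groups were far apart. CD58 fell by 0.87 ± 0.05, a 1.83-fold decrease (limma, adjusted p = 1.21e-05). All 5 of its probe sets were called lower. In 4 of them the differences ran from -1.56 to -0.87, and 216322_at, whose GSK126 group lay below the medians, fell by at least 0.69.

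CD80, the inducible B7 ligand, read 11.83 and 11.85 under DMSO and 10.64 and 10.70 under GSK126 in the arrays labelled NALM-6, without overlap. It fell by 1.17 ± 0.11, a 2.25-fold decrease (limma, adjusted p = 9.89e-05). The probe set 1555689_at fell by 0.36 ± 0.07 (limma over all probe sets, adjusted p = 0.00444), and 1554519_at gave -0.16 ± 0.12 and was not called (adjusted p = 0.425). The mean of the 3 fell by 0.56 (limma, adjusted p = 5.50e-04), so probe sets of CD80 disagree on the size of the fall.

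CD83 read 11.72 and 11.81 under DMSO and 11.43 and 11.41 under GSK126 in the arrays labelled NALM-6 and fell by 0.34 ± 0.06 (limma, adjusted p = 0.00231). CD86, the B7 ligand that resting antigen-presenting cells already carry, was not called. It read 11.33 and 11.45 under DMSO and 11.51 and 11.52 under GSK126, a difference of 0.12 ± 0.09 with a 95% interval of -0.09 to 0.34 (limma, adjusted p = 0.330). Its other probe sets gave -0.27 and 0.28, and neither was called. A difference between the responses of CD80 and CD86 was not tested.

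Over all 32 probe sets, 19 were called in the arrays labelled NALM-6, 17 lower and 2 higher, against 20.5% of all probe sets on the array, 10.1% lower and 10.4% higher. Both groups lay below the medians for 5 of the 32. The 2 called higher were both of LY9. Every called probe set of SLAMF1, SLAMF6, CD48, CD84, CD58, CD80 and CD83 was lower.

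**Figure D3:**
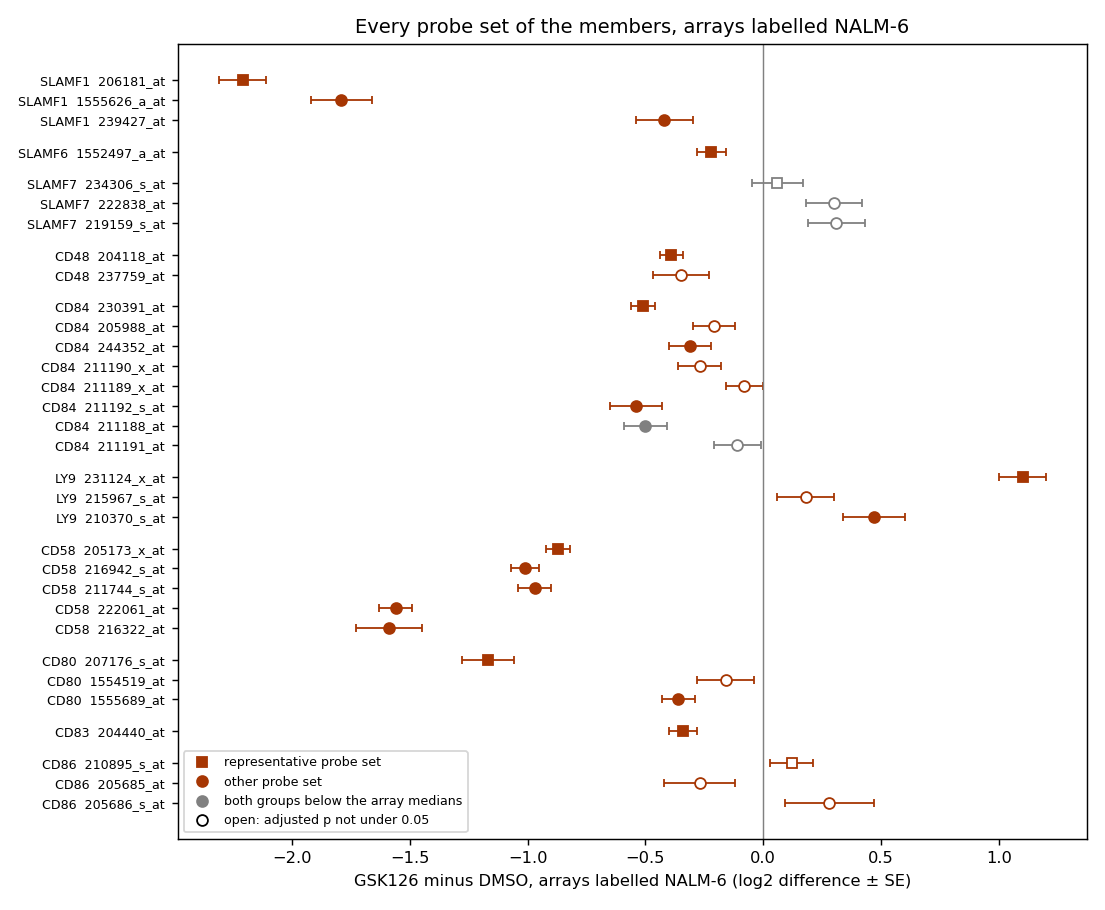
Log2 difference, GSK126 minus DMSO, ± SE (horizontal axis) for each of the 32 probe sets in arrays labelled NALM-6. Squares are the representative probe sets, circles the others, grey symbols have both groups below the array medians, and filled symbols passed the test. The 4 CD58 probe sets with no group below the medians lie between -1.56 and -0.87, while those of SLAMF1, CD80 and LY9 spread widely.

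In the arrays labelled SUP-B8 the same treatment left 0 of the 9 tested members called by limma, where 2.25% of all tested genes were. At an unadjusted p under 0.05 there were 2, SLAMF1 and CD86, and both groups of each lay below the array medians. The median difference was 0.03, against -0.02 over all tested genes. Treated and control arrays did not overlap for 3 of the 9, against 49.5% of tested genes. Of the 32 probe sets 0 were called, against 0.331% of all probe sets, and 6 had an unadjusted p under 0.05. The share of all genes or probe sets under that unadjusted threshold was not computed, so neither unadjusted count is read as a response. Both groups lay below the medians for 16 of the 32.

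The intervals were narrow for the members that were well above background. CD48 read 10.90 and 10.94 under DMSO and 10.90 and 10.91 under GSK126, with a 95% interval of the difference of -0.12 to 0.09. CD58 read 11.58 and 11.68 under DMSO and 11.67 and 11.65 under GSK126, with an interval of -0.09 to 0.16. CD84 read 10.56 and 10.55, then 10.52 and 10.50, with an interval of -0.16 to 0.09. The differences of the NALM-6 label for the same genes, -0.39, -0.87 and -0.51, lie outside these intervals. All of these are values of the representative probe sets. The 6 CD84 probe sets with no group below the medians ran from -0.30 to 0.04 in the SUP-B8 label, and none was called. For CD83 the interval was -0.07 to 0.20, for SLAMF6 -0.12 to 0.15, for LY9 -0.21 to 0.25 and for CD80 -0.21 to 0.30. CD80 read 7.49 and 7.27 under DMSO and 7.26 and 7.59 under GSK126, close to the array medians, so a fall there would soon have reached them. SLAMF6 read 7.65 and 7.71, then 7.73 and 7.66, and is not shown to be well above background. The T-cell markers CD3E and CD5 read 8.12 and 7.94 in the same label under DMSO. LY9 read 8.29 and 8.21, then 8.19 and 8.34, near that CD3E level, and is likewise not shown to be well above background. CD86 read 6.05 and 5.78, then 6.17 and 6.30, below the medians throughout.

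A call in one line and not in the other does not show that responses differ, so the difference itself was tested (the response in the SUP-B8 label minus that in the NALM-6 label). It was called for 7 of the 9 members, 6 higher and 1 lower, against 25.4% of all tested genes, 10.9% higher and 14.5% lower. The median was 0.40, against -0.04 over all tested genes. SLAMF1 differed by 2.50 ± 0.15 (limma, adjusted p = 3.25e-05), with the SUP-B8 groups below the medians. CD80 differed by 1.22 ± 0.16 (adjusted p = 0.00109) and CD58 by 0.90 ± 0.08 (adjusted p = 1.45e-04), both by limma. LY9 differed the other way, by -1.08 ± 0.14 (limma, adjusted p = 0.00117). CD84, CD83 and CD48 differed by 0.48, 0.40 and 0.37. Of the 8 CD84 probe sets 1 was called for this difference, and the 8 ran from -0.22 to 0.48. Of the 3 LY9 probe sets 1 was called, the _x_at one, and the others gave -0.15 and -0.40. Of the 3 CD80 probe sets 2 were called, and 1554519_at gave -0.20. Of the 2 CD48 probe sets 1 was called. SLAMF6 at 0.24 ± 0.08 and CD86 at 0.19 ± 0.13 were not called (limma, adjusted p = 0.0643 and 0.332). On the mean of its probe sets the difference was 0.48 for CD80 (limma, adjusted p = 0.0140), 0.22 for CD84 (0.0332), -0.54 for LY9 (0.00841) and 1.64 for SLAMF1 (1.92e-05). The CD58 mean differed by 1.22 (limma, adjusted p = 1.58e-05). Of the 32 probe sets 13 were called, against 10.9% of all probe sets.

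The levels without inhibitor already set the lines apart. Under DMSO 8 of the 9 tested members were called between the labels, 7 lower and 1 higher in the SUP-B8 label. Over all tested genes 68.3% were called, 30.6% lower and 37.8% higher. The median difference, SUP-B8 minus NALM-6 label, was -2.45, against 0.04 over all tested genes. Of the 9, 6 differed by at least 2-fold, a size that 20% of tested genes reached, and arrays of the lines did not overlap for 8, against 81.1%. Of the 32 probe sets 25 were called, against 43.6% of all probe sets. Markers of B-cell stage separated the labels in the same arrays. All 5 early B markers were called higher in the SUP-B8 label, with a summed linear signal of 41987 to 44275 against 1810 to 1932. All 3 tested mature B markers were called lower there, with 472 to 480 against 18370 to 18553. Of the NK-cell and dendritic-cell markers NKG7 was higher by at least 0.22 and CD1C differed by -0.37 ± 0.08 (limma, adjusted p = 2.46e-05 and 0.00412). Their part in the member differences was not tested.

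CD86, CD80 and SLAMF1 were farthest apart, in an order that cannot be given because the SUP-B8 groups of CD86 and SLAMF1 lay below the medians. CD80 was higher in the NALM-6 label, with a difference coded as -4.46 ± 0.11 on its representative probe set (limma, adjusted p = 4.94e-09). The SUP-B8 arrays read 7.49 and 7.27 there, close to the medians, so that size rests on a group not shown to be well above background. The other CD80 probe sets, with SUP-B8 groups below the medians, were higher in the NALM-6 label by at least 2.19 and 2.01. CD86 was higher in the NALM-6 label by at least 4.19 on its representative probe set and by at least 2.57 and 2.48 on the others. SLAMF1 was higher by at least 3.65, 2.72 and 0.78 on its 3 probe sets. The means of probe sets, -4.18 for CD80, -3.94 for CD86 and -2.88 for SLAMF1, include SUP-B8 groups below the medians. They therefore give neither a size nor an order. CD48, SLAMF6 and CD83 followed at -2.56 ± 0.05, -2.45 ± 0.06 and -2.32 ± 0.06 in the same coding. The mean of the CD48 probe sets, -1.84, includes 237759_at, whose SUP-B8 group lay below the medians. CD58 differed by -0.84 ± 0.05 (limma, adjusted p = 1.35e-06).

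CD84 and LY9 did not share this pattern. CD84 was higher in the SUP-B8 label by 0.28 ± 0.05 (limma, adjusted p = 0.00171), and the mean of its 8 probe sets differed by 0.09 and was not called (adjusted p = 0.0990). The representative LY9 probe set read 8.29 and 8.21 in the SUP-B8 label against 8.18 and 8.31 in the NALM-6 label. These arrays overlapped, with a 95% interval of -0.23 to 0.23 (limma, adjusted p = 0.984). The other LY9 probe sets were lower in the SUP-B8 label, 215967_s_at by at least 0.98 and 210370_s_at with both groups below the medians, and the mean of the 3 gave -0.77 (limma, adjusted p = 1.93e-05).

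The same comparison under GSK126 was added after the data were seen. It shares its arrays with the responses above, so it restates them from the side of the lines. Of the 9 tested members 8 were called, against 67.7% of all tested genes, with a median of -1.91 against -0.01. The member no longer called was CD58, whose difference went from -0.84 under DMSO to 0.05 ± 0.05 under GSK126, with a 95% interval of -0.07 to 0.18 (limma, adjusted p = 0.401). The 4 CD58 probe sets with no group below the medians did the same. Each was called under DMSO at -0.84 or lower, and none was called under GSK126, where they lay between -0.19 and 0.12. The fifth, 216322_at, was higher in the NALM-6 label by at least 0.71 under DMSO and had both groups below the medians under GSK126. Of all 32 probe sets 22 were called under GSK126, against 43% of the array. The CD58 levels of the NALM-6 label under GSK126, 11.61 and 11.61, lay beside the 11.67 and 11.65 of the SUP-B8 label. On the representative probe sets SLAMF1 remained higher in the NALM-6 label by at least 1.45, CD80 by a difference of -3.25 ± 0.11 and CD86 by at least 4.32. The SUP-B8 group of CD80 again lay close to the medians, and its other probe sets were higher in the NALM-6 label by at least 2.04 and 1.65. LY9 went from -0.00 to -1.08 and CD84 from 0.28 to 0.75.

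**Figure D4:**
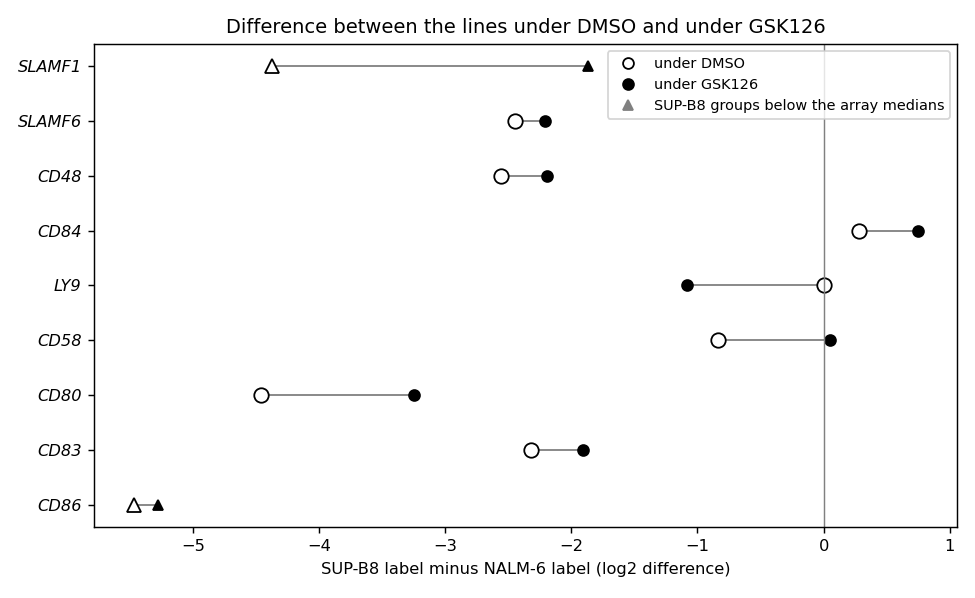
Log2 difference between the labelled lines, SUP-B8 minus NALM-6 (horizontal axis), for the 9 tested members under DMSO (open) and under GSK126 (filled). Triangles mark members whose SUP-B8 groups lay below the array medians, so that the plotted value is not a bound. CD58 moves from -0.84 to 0.05, LY9 from -0.00 to -1.08, and CD86 from -5.47 to -5.28.

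Ranked by level on the representative probe sets, the groups of a member formed the following orders. For SLAMF1, CD80, CD83, CD48 and SLAMF6 the NALM-6 label under DMSO was highest, its GSK126 group next and both SUP-B8 groups lowest, and the SUP-B8 groups did not pass the test against each other. For CD58 the NALM-6 label under DMSO stood above the other 3 groups, which did not pass the tests made between neighbours. For LY9 the NALM-6 label under GSK126 stood above the other 3. That order did not hold on its probe set 215967_s_at. There the NALM-6 groups, 8.19 under DMSO and 8.37 under GSK126, both stood above the SUP-B8 groups, 7.06 and 7.09. For CD84 both SUP-B8 groups were highest, then the NALM-6 label under DMSO and last its GSK126 group. As a mean of its probe sets CD84 was not called between the lines under DMSO. For CD86 both NALM-6 groups were far above both SUP-B8 groups, and within a line the groups did not pass the test.

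Other genes of these pathways were taken from lists written with earlier results of these data known. The SLAM partners comprise receptors, ligands and signalling proteins, and 7 of 10 were tested, CD244, CD2 and SH2D1B being too low. In the NALM-6 label 2 rose and 2 fell, with a median of 0.07. Over the 5 lists together 22 of 36 tested genes were called in that label, 7 higher and 15 lower, against 39.3% of all tested genes, 20.8% higher and 18.5% lower. FYN, the kinase that SAP recruits, read 10.64 and 10.70 under DMSO and 11.17 and 11.21 under GSK126 and rose by 0.52 ± 0.05 (limma, adjusted p = 1.54e-04). PTPN6, which encodes the inhibitory phosphatase SHP-1, read 11.35 and 11.35 and then 10.69 and 10.79, and fell by 0.61 ± 0.05 (limma, adjusted p = 7.32e-05). SH2D1A rose by 0.28 ± 0.08 (limma, adjusted p = 0.0241), a call lost on leaving out any one of the 4 NALM-6 arrays (adjusted p between 0.0601 and 0.105). PTPN11, which encodes SHP-2, fell by 0.21 ± 0.05 (limma, adjusted p = 0.0127), a call lost without DMSO replicate 1 (0.0580) or GSK126 replicate 2 (0.0947) of that label.

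Of the CD28 and B7 family outside the members 6 of 13 were tested, and 1 was called in the NALM-6 label, where 39.3% of all tested genes were. That gene was CD274, which encodes the inhibitory ligand PD-L1. It read 9.98 and 10.04 under DMSO and 8.18 and 8.48 under GSK126 and fell by 1.68 ± 0.09, a 3.20-fold decrease (limma, adjusted p = 5.73e-06). CD28 itself was below the filter, and CTLA4 was tested and not called. The list's median was 0.04, against 0.02 over all tested genes.

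Among 10 other costimulatory and adhesion genes, all tested, 2 rose and 4 fell in the NALM-6 label, against 20.8% and 18.5% of all tested genes, with a median of -0.17. ICAM1, a ligand of the integrin LFA-1, read 11.46 and 11.49 under DMSO and 10.75 and 10.78 under GSK126 and fell by 0.72 ± 0.05 (limma, adjusted p = 1.44e-05). ITGB2, the beta chain of LFA-1, fell by 0.41 ± 0.07 (limma, adjusted p = 0.00239), and by 0.26 as a mean of its probe sets (adjusted p = 0.00202). The TNF-family ligands TNFSF4 and TNFSF8 rose by 0.38 ± 0.10 and 0.37 ± 0.09 (limma, adjusted p = 0.0161 and 0.0138). Without GSK126 replicate 1 of that label neither was called (adjusted p = 0.0782 and 0.0894). Without DMSO replicate 1 TNFSF8 was again not called (adjusted p = 0.0851), and the TNFSF4 difference was 0.21 and still called (adjusted p = 0.0416). As a mean of its probe sets TNFSF8 rose by 0.61 (limma, adjusted p = 4.47e-05).

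**Figure D5:**
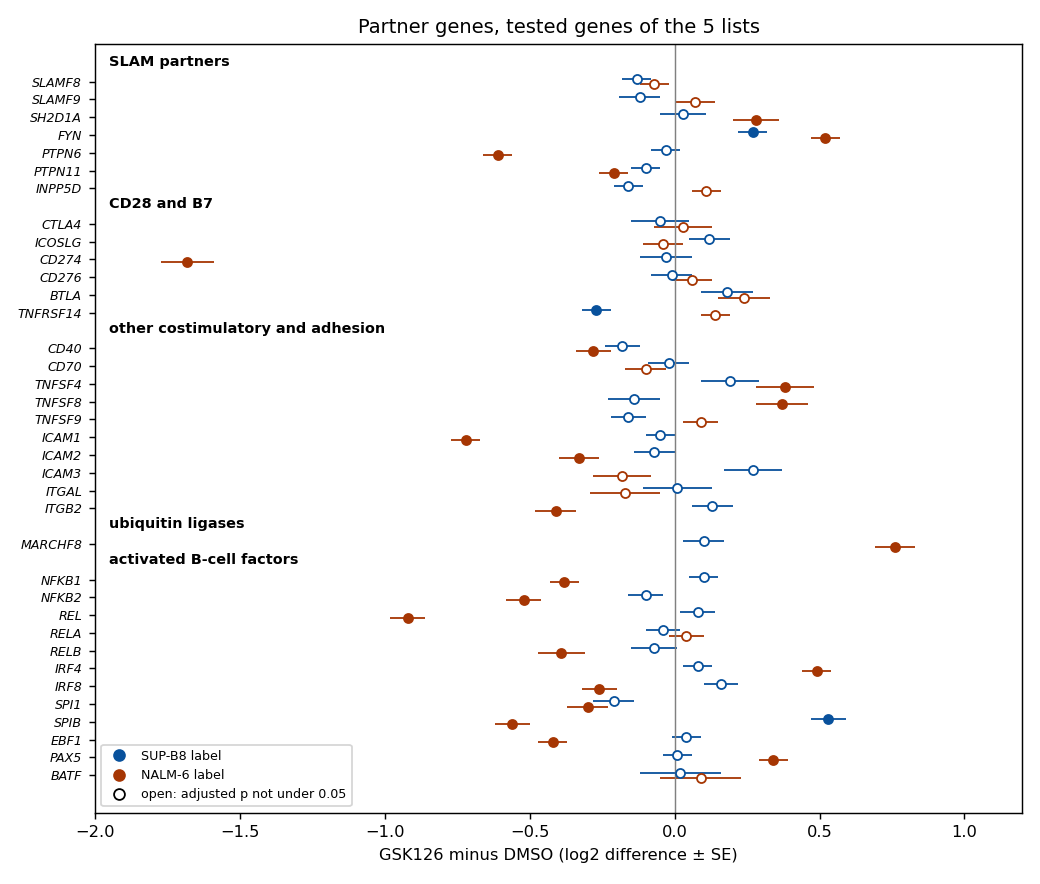
Log2 difference, GSK126 minus DMSO, ± SE (horizontal axis) of the tested genes of the 5 partner lists in arrays labelled SUP-B8 (blue) and NALM-6 (red). Filled points passed the adjusted p threshold of 0.05, and pairs of groups below the array medians are drawn too. CD274 at -1.68 lies farthest to the left and MARCHF8 at 0.76 farthest to the right, both in the NALM-6 label.

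MARCHF1 and MARCHF8 encode membrane ubiquitin ligases that lower surface CD86. MARCHF8 read 7.95 and 8.08 under DMSO and 8.77 and 8.78 under GSK126 in the NALM-6 label and rose by 0.76 ± 0.07 (limma, adjusted p = 9.17e-05). As a mean of its probe sets the rise was 0.24 (adjusted p = 0.0124). MARCHF1 was below the medians in all 4 groups and was not tested among the genes. In the fit over all probe sets it was called higher in the NALM-6 label (limma, adjusted p = 0.0203), and no size is given.

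The list of B-cell transcription factors holds factors of activation and also PAX5, used above as a B-lineage marker. In the NALM-6 label 10 of its 12 genes were called, 2 higher and 8 lower, with a median of -0.34. Over all tested genes 20.8% were called higher and 18.5% lower. REL, an NF-kB subunit of B-cell activation, read 11.91 and 11.93 under DMSO and 11.01 and 10.99 under GSK126 and fell by 0.92 ± 0.06 (limma, adjusted p = 1.45e-05). NFKB2 fell by 0.52 ± 0.06 and SPIB, an ETS factor of B cells, by 0.56 ± 0.06 (limma, adjusted p = 2.65e-04 and 1.64e-04). IRF4, a factor of activated B cells and plasma cells, rose by 0.49 ± 0.05 (limma, adjusted p = 1.50e-04), and by 0.26 as a mean of its probe sets (0.00381).

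In the SUP-B8 label 3 of the 36 tested genes of these 5 lists were called, against 2.25% of all tested genes. SPIB read 9.20 and 9.32 under DMSO and 9.82 and 9.76 under GSK126 and rose by 0.53 ± 0.06 (limma, adjusted p = 0.00744), opposite to its fall in the other label. That call was lost without GSK126 replicate 1 of the SUP-B8 label (0.50, adjusted p = 0.0660) and on the mean of its probe sets (0.20, adjusted p = 0.0606). FYN rose by 0.27 ± 0.05 and TNFRSF14, a receptor that binds BTLA, fell by 0.27 ± 0.05 (limma, adjusted p = 0.0474 and 0.0481). Both calls were lost under each of the 8 omissions of an array, with adjusted p of 0.0625 to 0.272 for FYN and 0.0579 to 0.227 for TNFRSF14.

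Under DMSO the other costimulatory and adhesion genes were lower in the SUP-B8 label in 9 of 10 cases and higher in 1, TNFSF4, with a median of -2.03. Over the 5 lists 32 of 36 genes were called, 25 lower and 7 higher, against 68.3% of all tested genes, 30.6% lower and 37.8% higher. ICAM3, an adhesion ligand of LFA-1, differed by -5.36 ± 0.10, CD70, the ligand of CD27, by -4.07 ± 0.07, ICAM1 by -2.75 ± 0.05 and CD40 by -2.49 ± 0.06, each with an adjusted p of 3.22e-09 or smaller (limma). In the CD28 and B7 list 4 of 6 were lower, CD274 by at least 2.81 and BTLA by at least 0.29. Of the 12 factors 9 were lower and 3 higher. IRF8 differed by -4.71 ± 0.06, RELB by at least 3.71 in the same direction, NFKB2 by -3.40 ± 0.06 and SPIB by -3.37 ± 0.06 (limma, adjusted p of 1.92e-09 or smaller). As means of probe sets NFKB2 and SPIB differed by -2.04 and -2.03 and CD274 by -2.13. The CD274 mean gives no size, because the SUP-B8 group of its representative probe set lay below the medians. MARCHF8 was higher in the SUP-B8 label by 2.08 ± 0.07, or 0.91 as a mean of its probe sets. Among the SLAM partners 2 were higher and 3 lower, INPP5D, which encodes the lipid phosphatase SHIP-1, at -1.48 ± 0.05, FYN at -0.69 ± 0.05 and PTPN6 at 0.42 ± 0.05 (limma, adjusted p = 1.93e-08, 4.49e-06 and 1.40e-04). FYN was -0.39 as a mean of its probe sets. SH2D1A differed by -0.22 ± 0.08 (limma, adjusted p = 0.0332), and that call was lost on leaving out any one of the 4 DMSO arrays (adjusted p between 0.0627 and 0.135).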

How the data were processed

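The arrays, platform, groups and treatments are those described above, taken from the labels. The authors deposited log2 expression values for every probe set on each array, a unit read from their range of 3.15 to 15.11 and from the near-equal array medians. The submitters' processing notes name MAS5 and RMA. Which step each served is not given in the sources used here. No further transformation or scaling was applied. Scaling between arrays hides a change shared by most transcripts. The number of arrays limits the precision.

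Gene names came from the annotation of the platform, which gives a single gene symbol for 41097, more than 1 for 1801 and no entry for 11777. A RefSeq gene table held 41043 of the symbols as current and lacked the identifiers of 54. The single-symbol probe set of highest mean over all 8 arrays stood for its gene, which gave 19775 genes. Of these, 13161 had 2 or more arrays above the array's own median and entered the test. The test was limma 3.58.1 in R 4.3.3 with 1 mean per group, moderated variances and 4 residual degrees of freedom, with the Benjamini-Hochberg adjustment taken over all genes tested. A fit over all 54675 probe sets served the single probe sets. Values are log2 differences ± SE, or group means ± SD. The threshold for a call was an adjusted p of 0.05. Tables were prepared with Python 3.11.15, and the procedure was tested on simulated data.

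The members, the gene lists and the alternatives were chosen with earlier results of these data known. All members are described. From each other list and comparison up to 4 called genes of largest size were named, or up to 2 of largest size if none was called. The comparison of the lines under GSK126, and the reading of the other CD84 and LY9 probe sets, were added after the data were seen. Alternatives changed the filter, the choice of probe set, the normalization, the variance prior and the set of arrays fitted, added a replicate block, or omitted each array in turn.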

Additional observations from a re-analysis of the deposited data

Results flagged for a closer look

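The responses to GSK126 differed between the labelled lines by the test of that difference (limma, adjusted p under 0.05) for 7 members. They also differed for 18 of the 36 tested genes of the partner lists, 11 higher and 7 lower. Over all tested genes 25.4% were called, 10.9% higher and 14.5% lower. Values are the response in the SUP-B8 label minus that in the NALM-6 label, on the log2 scale. Among the members they were 2.50 for SLAMF1, 1.22 for CD80, 0.90 for CD58 and 0.48 for CD84. They were 0.40 for CD83, 0.37 for CD48 and -1.08 for LY9, and all 7 were called under each omission of an array. Both SUP-B8 groups of SLAMF1 lay below the array medians, so its size includes values not shown to be above background. By single probe sets (limma over all probe sets), 1 of 8 was called for CD84, 1 of 3 for LY9 and 1 of 2 for CD48. For CD80 and for SLAMF1 2 of 3 were called, and for CD58 5 of 5.

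Up to 4 called genes of largest size are given from each partner list, 14 in all. Of these, the differences above 0 were 1.65 for CD274, 1.09 for SPIB, 1.0 for REL, 0.66 for ICAM1, 0.59 for PTPN6, 0.53 for ITGB2, 0.48 for NFKB1, 0.46 for EBF1 and 0.44 for ICAM3. Those below 0 were -0.66 for MARCHF8, -0.51 for TNFSF8, -0.41 for TNFRSF14, -0.27 for INPP5D and -0.25 for FYN. The other 4 called were from the list of B-cell transcription factors, IRF8 at 0.43, NFKB2 at 0.41, IRF4 at -0.41 and the B-lineage marker PAX5 at -0.33. Both SUP-B8 groups of CD274 and of TNFSF8 lay below the array medians, so their sizes include values not shown to be above background. SPIB rose in one label and fell in the other, although its rise in the SUP-B8 label was lost without GSK126 replicate 1 of that label (adjusted p = 0.0660). Of the 14, FYN, ICAM3, INPP5D and TNFSF8 did not keep the call under every omission of an array. FYN kept it in 1 of 8 omissions, ICAM3 in 2, INPP5D in 3 and TNFSF8 in 4, with highest adjusted p of 0.145, 0.131, 0.0833 and 0.0755. As a mean of its probe sets the MARCHF8 difference was -0.24 and was not called (adjusted p = 0.0747).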

How the results depend on the processing

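Counts of called members were recomputed under 79 pairs of comparison and alternative, and 78 stayed within 1.5 times the main count. The exception was the SUP-B8 label with an intensity-trended robust variance prior, where 1 member was called in place of 0, namely CD86 (0.31, adjusted p = 0.0265), with both groups below the array medians. Leaving out each array in turn gave 0 to 0 called members in the SUP-B8 label, 7 to 8 in the NALM-6 label, 7 to 7 for the difference of responses, and 8 to 8 between the lines under DMSO and under GSK126. For probe sets the ranges were 0 to 0, 13 to 19, 9 to 13, 21 to 25 and 20 to 22. The deviations of same-numbered arrays correlated between -0.199 and 0.13. No strong shift shared by same-numbered arrays was seen, but such correlations cannot tell whether the cultures were run as pairs. With the replicate block 0, 8, 7, 8 and 8 members were called in the same order, and the probe sets called in the NALM-6 label went from 19 to 17. The block ended the calls of FYN (adjusted p = 0.0702) and TNFRSF14 (0.0763) in the SUP-B8 label and of the FYN difference of responses (0.0639). Among 711 recomputed member differences 3 lost their call and 4 gained one. Those lost were SLAMF6 in the NALM-6 label under the omissions given above and CD84 under DMSO as a mean of probe sets. Those gained were the CD86 value above, LY9 under DMSO as a mean of probe sets (-0.77), and the SLAMF6 difference of responses as a mean of probe sets (adjusted p = 0.0436) or with arrays centred on their medians (0.05, under the threshold before rounding). No called value changed sign. The cause of these changes was not tested. No pseudocount was needed on this scale. Signal near the array medians limits SLAMF1, SLAMF6, CD80 and CD86 in the SUP-B8 label, and LY9 there read near the T-cell marker CD3E.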

Other observations

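For CD86, CD80 and SLAMF1, the 3 tested members with the widest range of group means as deposited, the genes with the most similar profile over the 8 arrays were listed. Likeness was the root mean square distance between the values after each gene was centred on its own mean. The SUP-B8 groups of CD86 and SLAMF1 lay below the array medians, so these ranges and distances include values not shown to be above background. Closest to CD86 were SGK1 (0.17), FCMR (0.17) and ICAM3 (0.18). SGK1 encodes a kinase downstream of phosphoinositide signalling and FCMR the IgM Fc receptor of B cells. Closest to CD80 were SPAG1 (0.21), PDGFD (0.24) and TIAM2 (0.25).

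Closest to SLAMF1 were NFKBIE (0.26), LINC00158 (0.32) and LINC02909 (0.33). NFKBIE encodes an inhibitor of NF-kB that is itself induced by NF-kB. Its group means were 8.68 and 8.57 under DMSO and GSK126 in the SUP-B8 label, and 12.47 and 10.22 in the NALM-6 label. The 8 arrays come from 4 groups of 2 lines, and no test was made.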
